A study of Mus musculus with 4 samples.

Results

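The genes described here encode the subunits of the proteasome together with the proteins that cap, inhibit and assemble it. They were chosen by symbol: every mouse gene named Psma, Psmb, Psmc, Psmd, Psme, Psmf or Psmg with a number, leaving out the immunoproteasome genes Psmb8, Psmb9 and Psmb10, with the brightest probe taken for each gene. The pattern takes 45 symbols of the RefSeq gene table, of which 44 had a matched probe, out of 20956 genes on the array in all. Psme2, the partner of Psme1 in the PA28 cap, was not analysed here. Of these 44 genes, 42 were well above background on all 4 arrays and were compared. The other two, the testis alpha subunit gene Psma8 and the thymus beta subunit gene Psmb11, were not well above background on any array.

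The cells were 3T3-L1, mouse preadipocytes in culture that can be driven to become adipocytes with hormones, and the study asked what happens when Lamp2a is knocked down. The 4 groups were knockdown cells at day 0, control cells at day 0, knockdown cells at day 2 and control cells at day 2, with 1 array per group. All were kept in medium with 10% serum. Both day 2 groups had been given 160 nM insulin, 250 nM dexamethasone and 0.5 mM isobutylmethylxanthine to start differentiation, and the day 0 groups had not. What the control cells carried, how the knockdown was made and whether it is 1 clone are not given in the sources used here. Because each group is 1 culture on 1 array, the differences below carry no replicate error and no test was run. The number of arrays limits the precision of every ratio.

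The proteasome degrades proteins tagged with ubiquitin. Its 20S core is a barrel of alpha rings, which gate entry, around beta rings, which hold the protease sites, and a 19S regulator of base and lid binds ubiquitin, unfolds the substrate and feeds it into the core. LAMP2A, a splice form of Lamp2, is the lysosomal receptor of chaperone-mediated autophagy, another route by which cells degrade proteins. In mammalian cells the transcription factor Nfe2l1 raises subunit genes together when proteasome activity is low.

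Levels are given as normalised signal, the processed probe intensity divided by the 75th percentile of all probes on that array, and differences as log2 ratios. A gene is counted as higher or lower when it differs by at least 1.5-fold. Probes printed 10 times on each array had a median standard deviation of the log2 ratio between spots of 0.05 for knockdown against control at day 0 and 0.03 at day 2, and of 0.06 in knockdown and 0.07 in control cells for day 2 against day 0. These are within-array errors only. Of the 44 proteasome genes, 43 were read by a probe printed once, so that no such error exists for them. The exception is Psme1, printed 10 times. For the targeted gene, Lamp2, the knockdown signal of the probe to NM_001017959 was 4.76 against 19.69 in controls at day 0 and 3.24 against 11.38 at day 2, that is 4.13-fold and 3.51-fold lower, while a brighter probe, to NM_010685, differed by 1.29-fold and 1.08-fold; which splice form each probe reads was not determined. All 8 preadipocyte or fibroblast markers were well above background on all 4 arrays. So were 4 of 4 macrophage and leukocyte markers analysed (Ptprc, Adgre1, Csf1r and Itgam), 2 of 4 endothelial markers (Pecam1 and Kdr) and 1 of 4 epithelial markers (Krt18), while Krt8 and Cdh1 were above it on 1 array each and Epcam on none. Of these, Ptprc had normalised signals of 0.03 to 0.08, Adgre1 of 0.07 to 0.11 and Krt18 of 0.02 to 0.04, and Itgam of 14.15 to 34.98. Csf1r had 1.73 to 2.63, Kdr 2.62 to 3.49 and Pecam1 0.27 to 0.36. Whether such cells were present, and their part in the values below, was not tested. The control day 0 array was alone on slide 1 and had the lowest share of spots well above background, 67.4%, against 78.7% to 88.6% on the 3 arrays of slide 2. In the comparisons that use it, slide and group cannot be told apart.

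Proteasome genes kept close to the same level on all 4 arrays. The gap between a gene's highest and lowest array had a median of 0.33 log2 units over the 42 compared genes, and it was under 0.5 in 32 of them (76.2%). Among the 7386 genes at least as bright as the dimmest compared proteasome gene, Psmd9, the median gap was 0.62 and 36.6% were under 0.5. That set shares only this lower limit with the proteasome genes and was not matched to them in brightness. Psmd2, a scaffold subunit of the base that binds ubiquitin shuttles, had the smallest gap, 0.07: its normalised signal was 24.74 in knockdown and 25.09 in control cells at day 0, and 24.10 in knockdown and 23.89 in control cells at day 2. The largest gap, 1.57, belonged to Psma1, an alpha ring subunit.

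**Figure D1:**
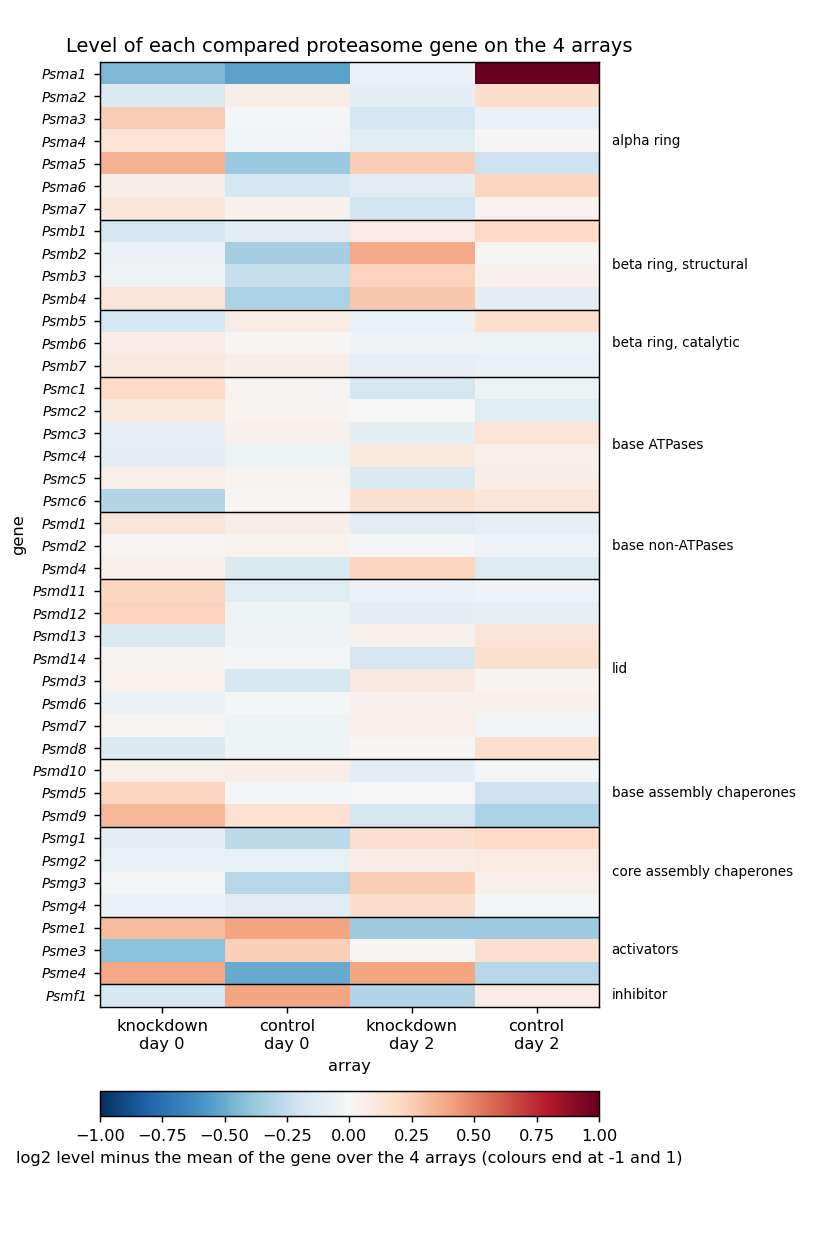
Each row is 1 of the 42 compared genes, grouped by role, and each column is 1 array; colour is the log2 normalised signal minus the mean of that gene over the 4 arrays. Most rows are pale, and the darkest cell is Psma1 in control cells at day 2, where its signal was 109.72.

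Promoter letters of 4 genes are shown because they span this contrast: Psma1 and Psme1 were past 1.5-fold over time in control cells, and Psmd2 and the catalytic gene Psmb6 were among the flattest. Each is the 250 bases before the RefSeq start of the gene in GRCm38.p6, read 5′ to 3′ along the gene: Psma1 at chr7:114276117-114276366 on the minus strand, Psme1 at chr14:55578244-55578493, Psmb6 at chr11:70525107-70525356 and Psmd2 at chr16:20651402-20651651, all 3 on the plus strand. Capitals mark matches, on either strand, to CCAAT (the NF-Y box), to GGGCGG (the SP1 box) or to TGACNNNGC, 1 form of the antioxidant response element to which Nfe2l1 and Nfe2l2 bind with small Maf proteins.
Psma1: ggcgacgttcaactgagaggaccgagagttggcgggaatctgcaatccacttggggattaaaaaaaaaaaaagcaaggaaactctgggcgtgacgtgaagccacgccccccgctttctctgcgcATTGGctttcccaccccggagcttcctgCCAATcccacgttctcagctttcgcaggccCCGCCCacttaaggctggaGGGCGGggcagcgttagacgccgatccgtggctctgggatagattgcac
Psme1: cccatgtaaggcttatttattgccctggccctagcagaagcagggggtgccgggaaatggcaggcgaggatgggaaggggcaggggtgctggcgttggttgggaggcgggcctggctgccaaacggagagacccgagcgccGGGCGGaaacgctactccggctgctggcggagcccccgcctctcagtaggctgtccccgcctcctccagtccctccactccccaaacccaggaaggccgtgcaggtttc
Psmb6: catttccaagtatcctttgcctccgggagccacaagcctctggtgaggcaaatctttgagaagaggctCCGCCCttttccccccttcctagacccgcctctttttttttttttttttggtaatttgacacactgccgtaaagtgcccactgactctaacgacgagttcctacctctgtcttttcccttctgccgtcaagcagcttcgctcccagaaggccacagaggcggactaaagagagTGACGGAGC
Psmd2: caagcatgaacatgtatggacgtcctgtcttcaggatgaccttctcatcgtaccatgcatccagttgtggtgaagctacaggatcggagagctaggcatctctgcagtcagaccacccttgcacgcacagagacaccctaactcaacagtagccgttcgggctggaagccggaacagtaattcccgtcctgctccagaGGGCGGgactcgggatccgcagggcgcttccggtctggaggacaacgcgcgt
The Psma1 window holds CCAAT once on each strand and GGGCGG once on each strand, and the Psmb6 window ends in TGACNNNGC.

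RefSeq windows were found for 36 of the 44 genes, 38 windows in all, and were searched beside 32851 windows of all genes. GGGCGG was in 52.6% of the proteasome windows and 32.7% of all windows. TGACNNNGC was in 13.2% and 10.2%, and its variant TGAGNNNGC in 26.3% and 14.4%; 34.2% and 23.0% held at least 1 of these. CCAAT was about as frequent in both, at 34.2% and 33.8%, and TATAAA, the TATA box, was in 7.89% and 12.4%. These are matches of letters only. Psma1, Psme1 and Psmd2 hold neither antioxidant response form in this window, whether their level moved over time or not.

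At day 0, knockdown of Lamp2a went with little change in most proteasome genes. The median log2 ratio of the 42 genes, knockdown over control, was 0.06 (SD across genes 0.27), and 27 lay within 0.2 of 0. Psme4 and Psma5 were at least 1.5-fold higher and Psme3 was at least 1.5-fold lower, 3 of 42 genes (7.14%). Among all 19268 genes compared on these arrays 38.1% passed that size either way, and among the genes at least as bright 6.09% were higher and 8.67% were lower. Both directions together make 14.8% of the bright genes.

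Psme4 encodes PA200, a cap that opens the core without ubiquitin and is known for histone degradation. Its normalised signal was 2.24 in knockdown cells and 1.21 in control cells at day 0, and 2.25 in knockdown cells and 1.41 in control cells at day 2. Both knockdown arrays were above both control arrays, a log2 ratio of 0.89 (1.86-fold) at day 0 and 0.68 (1.60-fold) at day 2. A second, dimmer probe gave 0.65 and 0.27, so that it passed 1.5-fold at day 0 only. On that probe control cells were 0.65 higher at day 2 than at day 0, which puts the control day 2 array level with the knockdown day 0 array.

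Psma5, a gene of the alpha ring, had 51.60 in knockdown cells and 31.45 in control cells at day 0. At day 2 it had 48.10 in knockdown cells and 34.94 in control cells. Here too the 2 knockdown arrays were the higher ones, by 0.71 (1.64-fold) at day 0 and by 0.46, below 1.5-fold, at day 2. It had 1 probe.

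Psme3 encodes PA28 gamma, a nuclear cap, and Psmf1 encodes PI31, first described as an inhibitor of the core. Psme3 had 4.27 in knockdown cells and 6.67 in control cells at day 0, and 5.72 in knockdown cells and 6.31 in control cells at day 2. Its log2 ratio of -0.64 at day 0 was past 1.5-fold in 5 of 9 alternative processing settings, and at day 2 the ratio was -0.14. It fell short at day 0 with normexp, without detrending and with 2 other centrings. Some of the 9 settings could not change a gene with 1 probe. Psmf1 had 1.51 in knockdown cells and 2.24 in control cells at day 0, and 1.39 and 1.79 in the same order at day 2. Knockdown cells were the lower ones on both days, with log2 ratios of -0.57, just short of 1.5-fold, and -0.37; with cyclic loess scaling it was past 1.5-fold at day 0, at -0.61.

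**Figure D2:**
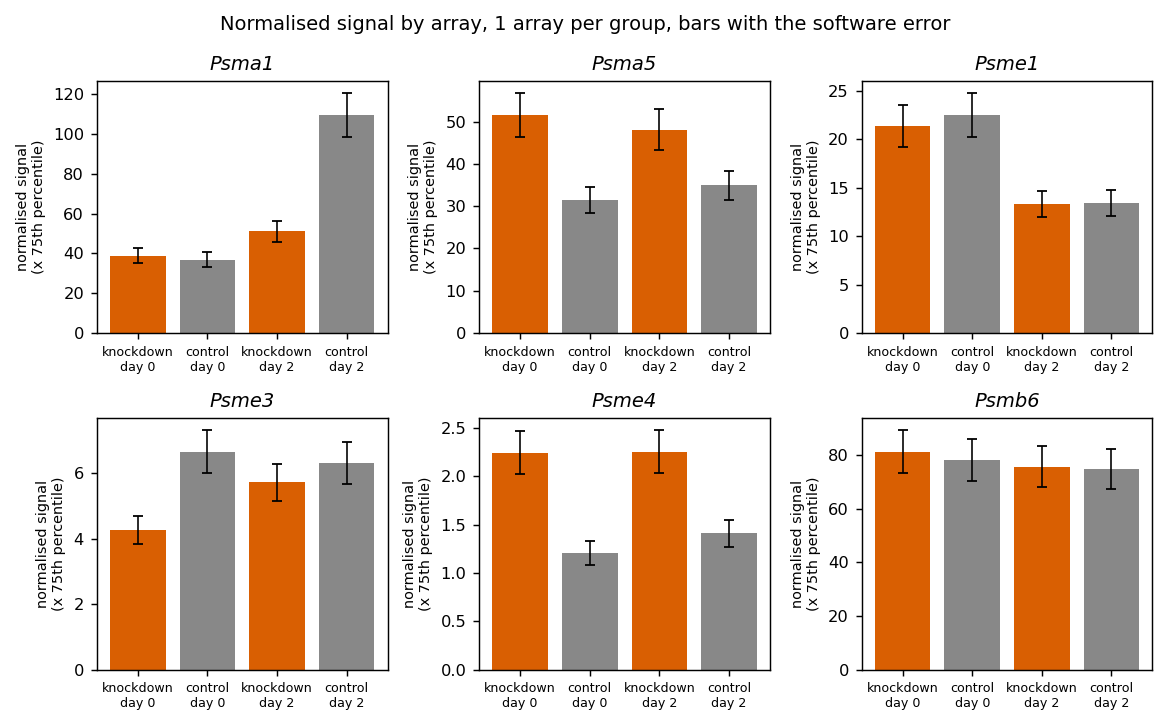
Bars give the normalised signal of 6 genes on each array (multiples of the array's 75th percentile), with the scanner software's own error of about 10% as whiskers; each bar is 1 array. Psma1 stands at 109.72 in control cells at day 2 against 51.08 in knockdown cells, Psma5 and Psme4 are higher on both knockdown arrays, and Psmb6 lies between 74.83 and 81.29 throughout.

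At day 2 the proteasome genes again differed little, with a median log2 ratio of -0.02 (SD across genes 0.28) and 27 of 42 within 0.2 of 0. Past 1.5-fold were Psme4, higher with the knockdown, and Psma1, lower with it, 2 of 42 genes (4.76%). All 18559 compared genes passed 1.5-fold either way in 16.9% of cases, and the genes at least as bright were higher in 8.95% and lower in 6.76%. Both arrays of this comparison came from slide 2.

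Psma1 had 51.08 in knockdown cells and 109.72 in control cells at day 2, and 38.98 in knockdown cells and 36.86 in control cells at day 0. The control day 2 array was highest, and the knockdown day 2 array was next, above both day 0 arrays. The log2 ratio was -1.10 (2.15-fold lower with the knockdown) at day 2 and 0.08 at day 0. No other alpha ring gene came near this: the 6 others spanned -0.33 (Psma6) to 0.46 (Psma5) at day 2. Psma1 was read by 1 probe, to NM_011965, printed once on each array. Each of its values is therefore 1 spot, and no second probe bears on it.

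Subtracting the day 0 ratio from the day 2 ratio gave Psma1 -1.18, and 1 of the 42 genes was past 1.5-fold in this difference. Of 15464 genes compared on it, 34.8% were past 1.5-fold either way, and among the bright genes 9.76% were higher and 5.92% lower. In the alpha ring all 7 genes had a difference below 0, from -0.06 (Psma2) to -1.18, with a median of -0.30. Over the 42 genes the median was -0.05, with 28 below 0. Over the bright genes it was 0.13, with 2579 of 7386 below 0. Among other complexes, the chaperonin TRiC had 7 of 8 genes below 0 (median -0.15) and the COP9 signalosome 7 of 9 (-0.07). The translation factor eIF3 had 4 of 13 (0.08). Of the 7 alpha ring log2 ratios, 6 lay above 0 at day 0 and 6 lay below 0 at day 2. Over the 9 alternative settings, 5 to 6 were above 0 at day 0, 1 at day 2, and 0 to 1 in the difference. Apart from Psma1 the alpha ring differences are under 1.5-fold, with Psma6 at -0.57, Psma3 at -0.38, Psma4 at -0.30, Psma7 at -0.29 and Psma5 at -0.25. Psme3 had the highest difference, 0.50.

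**Figure D3:**
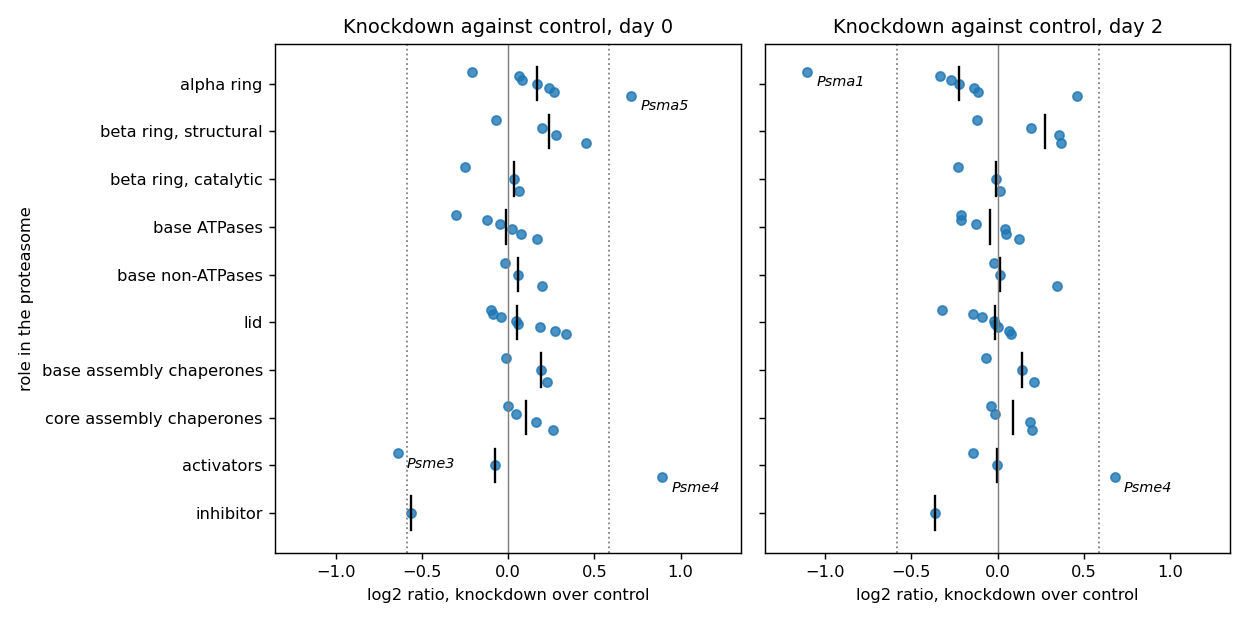
Points are log2 ratios, knockdown over control, of single genes at day 0 (left) and day 2 (right) by role, black bars are medians, and dotted lines mark 1.5-fold. Most points lie within the dotted lines; Psme4 is to the right on both days, and Psma1 is at -1.10 at day 2.

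The catalytic genes of the beta ring were close to level. Psmb6, the caspase-like site, had 81.29 in knockdown and 77.99 in control cells at day 0, and 75.67 in knockdown and 74.83 in control cells at day 2. Psmb7, the trypsin-like site, had 12.19 in knockdown and 11.89 in control cells at day 0, against which day 2 gave 10.78 in knockdown and 10.88 in control cells. Psmb5, the chymotrypsin-like site and the main target of bortezomib, was lower in knockdown cells on both days, with 58.72 against 69.81 at day 0 and 63.12 against 74.13 at day 2. These are log2 ratios of -0.25 and -0.23, under 1.5-fold, and its second probe gave -0.21 and -0.25.

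The structural beta genes Psmb2, Psmb3 and Psmb4 went the other way, higher in knockdown cells on both days but by less than 1.5-fold. Psmb4 had log2 ratios of 0.45 at day 0 and 0.35 at day 2, Psmb2 of 0.27 and 0.37, and Psmb3 of 0.19 on both days. Psmb1 had -0.07 and -0.12.

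None of the 17 genes of the 19S regulator was past 1.5-fold in any comparison. Among its ATPases, which unfold the substrate, Psmc6 had the lowest ratio at day 0, -0.30, and 0.04 at day 2. The lid gene Psmd14, whose product removes ubiquitin from the substrate, had 9.28 in knockdown and 8.99 in control cells at day 0, and 8.10 and 10.14 at day 2. Its log2 ratio of -0.32 at day 2 was the lowest of the 19S. Psmd11, a lid subunit, had 6.77 in knockdown and 5.38 in control cells at day 0 (log2 ratio 0.33), and 5.61 and 5.70 at day 2 (-0.02). The ubiquitin receptor gene Psmd4 was higher in knockdown cells on both days, with 49.63 against 43.40 and 55.61 against 43.77, or 0.19 and 0.35.

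Over the 2 days of hormone treatment most proteasome genes also kept their level. The median log2 ratio, day 2 over day 0, was 0.00 (SD across genes 0.27) in knockdown cells and 0.08 (0.33) in control cells. In knockdown cells Psme1 alone was past 1.5-fold, and it was lower, 1 of 42, while 29.0% of 19196 compared genes passed either way, and 17.4% of bright genes were higher and 13.2% lower. In control cells Psma1 was past 1.5-fold higher and Psme1 past 1.5-fold lower, 2 of 42, while 46.1% of 18655 compared genes passed either way, and 11.0% of bright genes were higher and 14.1% lower. These time courses share no array.

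Psme1, which encodes PA28 alpha, part of an interferon-induced cap tied to antigen presentation, was lower at day 2 in both kinds of cell. It had 13.34 in knockdown cells at day 2 and 21.37 at day 0, and 13.39 in control cells at day 2 and 22.54 at day 0, which is a log2 ratio of -0.68 (1.60-fold lower) and -0.75 (1.68-fold lower). Both day 2 arrays were below both day 0 arrays. Its probe was printed 10 times, and the spots spanned 12.7 to 13.8 in knockdown cells and 12.8 to 14.3 in control cells at day 2, against 20.7 to 22.4 and 22.0 to 23.0 at day 0. Between knockdown and control cells the log2 ratio of the gene was -0.08 at day 0 and -0.005 at day 2.

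The 3 immunoproteasome genes, whose products replace the catalytic beta subunits, were lower at day 2 as well. Psmb8 had log2 ratios of day 2 over day 0 of -1.47 in knockdown and -1.85 in control cells, Psmb10 of -1.27 in knockdown and -1.18 in control cells, and Psmb9 of -0.77 in knockdown and -1.04 in control cells. The constitutive genes they replace were nearly level: Psmb5 had 0.10 in knockdown and 0.09 in control cells, Psmb6 -0.10 in knockdown and -0.06 in control cells, and Psmb7 -0.18 in knockdown and -0.13 in control cells. Set against control cells of the same day, Psmb8 in knockdown cells had log2 ratios of -1.04 at day 0 and -0.66 at day 2, Psmb9 of -0.60 and -0.33, and Psmb10 of -0.02 and -0.11.

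**Figure D4:**
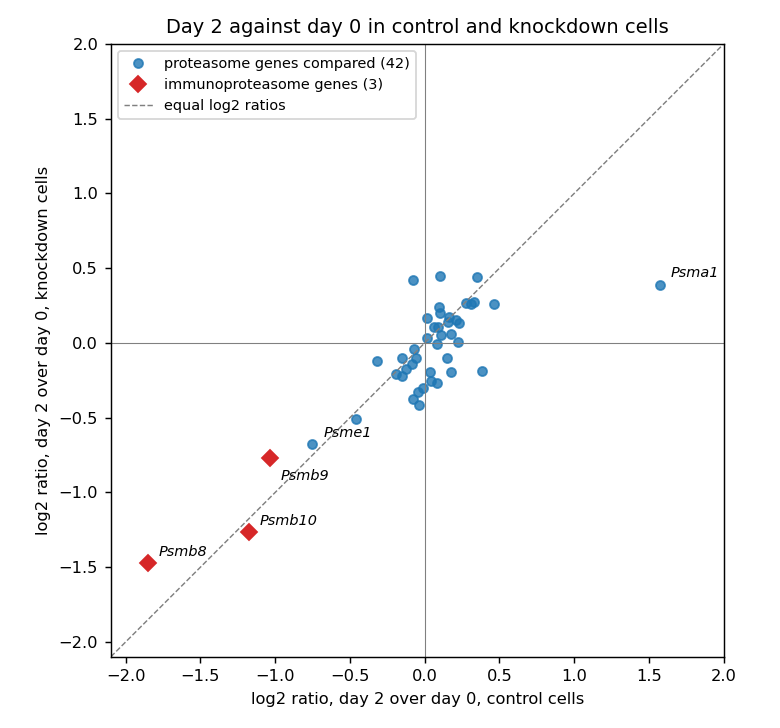
Each point is a gene, with its log2 ratio of day 2 over day 0 in control cells (horizontal) and in knockdown cells (vertical); the dashed line marks equal ratios. Most proteasome genes cluster near 0, Psme1 lies with the immunoproteasome genes at the lower left, and Psma1 lies alone at 0.39 in knockdown and 1.57 in control cells.

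The log2 ratio of Psma1 over time was 0.39 in knockdown cells and 1.57, or 2.98-fold higher, in control cells. Adipocyte markers differed between the cells too: 2 of 6 were past 1.5-fold higher at day 2 in knockdown cells (median log2 ratio 0.40) and 5 of 6 in control cells (median 2.33). Over time 29.0% of all compared genes passed 1.5-fold either way in knockdown cells and 46.1% in control cells. Those past it and higher were 2492 of 19196 genes in knockdown and 5887 of 18655 in control cells. Among bright genes the order was the reverse, with 30.7% either way in knockdown and 25.1% in control cells. Past 1.5-fold higher were 17.4% of bright genes in knockdown and 11.0% in control cells. Plin1, Cidec and Adipoq were dim in control cells at day 0, at 0.019, 0.035 and 0.009. Adipoq was not well above background there, so that its control ratio is a bound. The part of this low signal in the control ratios of Plin1, Cidec and Adipoq was not tested. Pparg, the master regulator of fat cell formation, had 2.93 in knockdown and 7.84 in control cells at day 2, and 3.17 and 3.14 at day 0. Fabp4, a fatty acid carrier of fat cells, went the other way, with 38.22 in knockdown and 6.23 in control cells at day 2, and 3.04 and 0.57 at day 0. The part of differentiation in the Psma1 value was not tested.

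The assembly chaperones showed small shifts over time that had the same direction in both kinds of cell. Psmg1 to Psmg4, which build the core, were all above 0, with medians of 0.25 in knockdown and 0.24 in control cells. Over the 9 alternative settings 3 to 4 of 4 were above 0 in knockdown cells and 4 in control cells. The medians were as low as 0.10 in knockdown and 0.21 in control cells. Of 7386 bright genes, 4508 were above 0 in knockdown (median 0.14) and 3731 in control cells (0.01). The translation factor eIF3 had 11 of 13 genes above 0 in knockdown and 12 of 13 in control cells. The chaperonin TRiC had 5 of 8 and 8 of 8, and the COP9 signalosome 5 of 9 in both. Psmg1 had 0.26 in knockdown cells and 0.46, the highest, in control cells. Psmg2 had 0.14 in knockdown and 0.15 in control cells, Psmg3 had 0.27 and 0.33, and Psmg4 had 0.24 and 0.09, in the same order. The structural beta genes were also above 0, with medians of 0.27 in knockdown and 0.29 in control cells, but this depended on the scaling: the median was 0.02 in knockdown cells with cyclic loess and 0.11 in control cells with quantile scaling, and 3 to 4 of 4 genes were above 0 over the alternatives.

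Psmd5, Psmd9 and Psmd10, which assemble the base, were all below 0, with medians of -0.21 in knockdown and -0.20 in control cells. All were below 0 in each of the 9 alternative settings too. Of 7386 bright genes, 2878 were below 0 in knockdown and 3655 in control cells. For Psmd9 the probes disagreed: the brighter one gave -0.51 in knockdown and -0.46 in control cells, and the dimmer one gave 0.30 in knockdown and 0.26 in control cells. In all, 10 genes had 2 probes, and for the others the gap between the probes of a gene was at most 0.43, the largest being that of Psme4. In knockdown cells Psmc6 (0.45), Psmb2 (0.44) and Psme3 (0.42) had the highest ratios over time, and Psma3 (-0.41) and Psmc1 (-0.37) were lowest after Psme1 and Psmd9.

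Other large protein complexes also had few genes past 1.5-fold. None of the 9 genes of the COP9 signalosome, a relative of the lid, passed in any of the 4 comparisons, and the translation factor eIF3 had 0 or 1 of 13 and the chaperonin TRiC 0 or 1 of 8.

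**Figure D5:**
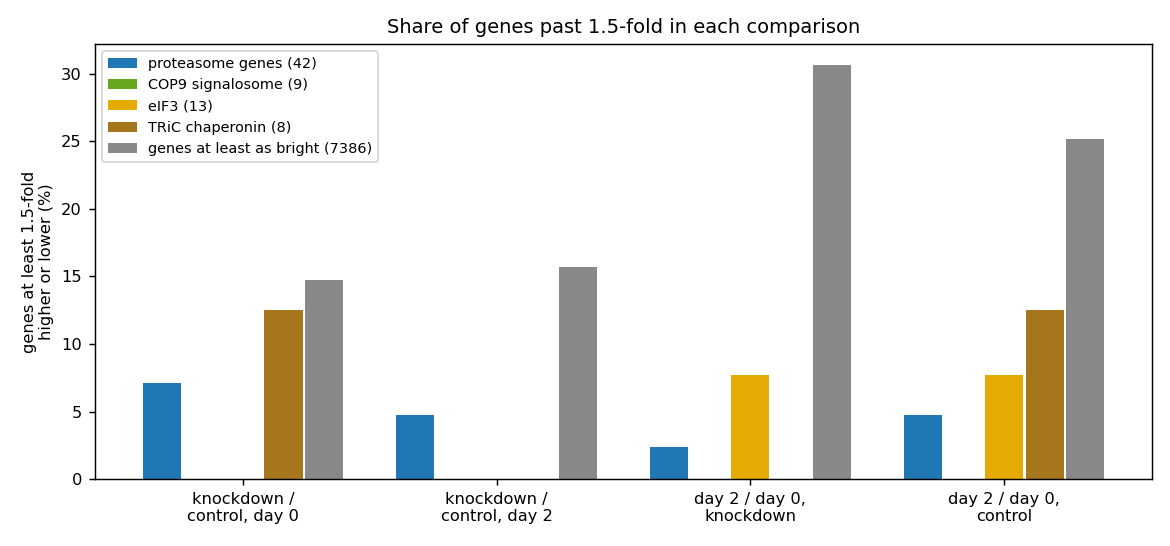
Bars give the percentage of genes at least 1.5-fold higher or lower in each comparison, for proteasome genes, 3 other complexes and the genes at least as bright; an absent bar is 0. Proteasome genes lie between 2.38% and 7.14%, and bright genes between 14.8% and 30.7%.

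Some genes that act on the proteasome were past 1.5-fold. Of 11 compared associated and assembly genes, 2 were higher in knockdown cells at day 0 and 2 at day 2, where 38.1% and 16.9% of all compared genes were past 1.5-fold either way and 6.09% and 8.95% of bright genes were higher. Zfand5, which binds the proteasome and activates it, had 64.61 in knockdown and 25.13 in control cells at day 2, and 18.27 and 16.67 at day 0. The knockdown day 2 array stood highest, 2.57-fold above control at day 2 and 3.54-fold above knockdown day 0. Zfand5 had 3 probes, of which only the brightest is given here. Ecpas, which holds core and regulator together, and Uchl5, a deubiquitinase of the regulator, were the pair higher with the knockdown at day 0. They were 1.80-fold and 1.55-fold higher, but Ecpas, at 0.42 in knockdown and 0.23 in control cells, is dimmer than the bright set. Beside Zfand5, the ubiquitin ligase gene Ube3c was 1.58-fold higher at day 2.

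Of 12 compared genes that regulate proteasome transcription, 3 were past 1.5-fold lower with the knockdown at day 0, and 1 was past it and higher at day 2. Beside this, 38.1% and 16.9% of all compared genes were past 1.5-fold either way on these days. Of the bright genes, 8.67% were lower at day 0 and 8.95% higher at day 2, but Nfe2l1, Ngly1 and Maff are dimmer than that set. Nfe2l1 had 0.92 in knockdown and 1.45 in control cells at day 0, and 0.92 and 0.90 at day 2, so that the control day 0 array alone was high. Bach1, a repressor at antioxidant response elements, had 2.83 and 4.78 at day 0 and 3.85 and 3.53 at day 2. The third, Ngly1, whose enzyme helps to activate the Nfe2l1 protein, was 1.51-fold lower at day 0, and Maff was 2.04-fold higher at day 2. Nfe2l2, the oxidative stress factor, had 30.61 in knockdown and 22.13 in control cells at day 2, and 16.19 and 17.86 at day 0.

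Among 10 genes of ubiquitin activation and shuttling, Sqstm1, which encodes the autophagy receptor p62, had 12.05 in knockdown and 23.33 in control cells at day 0, 1.94-fold lower, and 9.35 and 12.88 at day 2. Ubqln4, a shuttle to the proteasome, was higher in knockdown cells on both days, 1.79-fold and 1.56-fold. Past 1.5-fold either way were 2 of 10 compared genes of this list at day 0 and 1 of 9 at day 2. Of all compared genes, 38.1% and 16.9% were past it on these days. Of the bright genes 14.8% and 15.7% were, but Ubqln4 is dimmer than that set.

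Across the 42 genes, the knockdown log2 ratios at day 0 and day 2, which share no array, had a Pearson r of 0.54, and 0.69 without Psma1, against 0.56 over the bright genes. The time ratios of knockdown and control cells had an r of 0.62, and 0.67 without Psma1, against 0.79 over the bright genes. These describe genes, which are not independent replicates.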

How the data were processed

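Total RNA of 4 samples was hybridised with 1 colour to Agilent arrays of design 028005, 1 array per group. Per the file headers, the scans were quantified in Feature Extraction, version 10.7.3.1. The deposited values used here are processed intensity, background-subtracted and, on 3 arrays, detrended by the software, per the file headers, and not normalised between arrays.

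From these, log2 intensity minus each array's 75th percentile was computed after leaving out outlier spots and averaging the spots of a probe (Python 3.11.15, pandas 2.3.3). Probe accessions were named through RefSeq, which matched 27627 of 55612 probes. The calling step was tested on simulated data, and the outcome is not reported here. A gene not well above background on 1 side gives a bound. No spot was saturated. Sequences are RefSeq's, GRCm38.p6. The members, gene lists, motifs and the size of 1.5-fold were chosen with earlier results of these data known. Genes named are the 4 highest and 4 lowest ratios per comparison, fixed catalytic, receptor, cap and chaperone genes, genes that leave their sub-complex, and list genes past 1.5-fold, at most 3 per list and direction; promoters were chosen after values were seen. Alternatives were normexp with an offset of 50, no detrending, quantile and cyclic loess scaling (limma 3.58.1, R 4.3.3), 2 other centrings, the median of all probes, outliers kept, genes above background on all arrays and 2-fold. Results for some listed genes are not reported here.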

Additional observations from a re-analysis of the deposited data

How the results depend on the processing

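Of 95 medians and counts recomputed under the alternatives, 71 moved by less than the spread between repeated spots or stayed within 1.5 times, and 24 did not; of 495 single-gene values 303 and 192, and none past 1.5-fold changed sign. Psma1, Psma5 and Psme1 stayed past 1.5-fold in 9 of 9 alternative settings, Psme4 in 9 at day 0 and 8 at day 2, and Psme3 in 5. Psma1, Psma5, Psme1 and Psme3 have 1 probe each, above background on all 4 arrays. The median of all probes and the limit to genes above background therefore could not change their values. Psme3 fell short with normexp, without detrending and with both other centrings. Median log2 ratios of the 42 genes that moved were, for knockdown against control at day 0, 0.12 with the percentile over probes above background and 0.13 with centring on bright genes; at day 2, -0.062 with quantile scaling, -0.084 with cyclic loess and -0.052 with centring on bright genes; over time in knockdown cells, -0.17 with quantile and -0.20 with cyclic loess; over time in control cells, -0.0074 with quantile, -0.045 with cyclic loess and 0.16 with centring on bright genes; and for the difference between days, -0.15 with cyclic loess, -0.13 with the percentile over probes above background and -0.16 with centring on bright genes. The median of the bright genes over time in knockdown cells was -0.0051 with cyclic loess and 0.14 as reported. Counts at 2-fold were 0 and 1 for the knockdown at day 0 and day 2, and 0 and 1 over time in knockdown and control cells. At day 0 cyclic loess gave 4 genes, adding Psmf1. At day 2 the median of all probes left 1 gene, Psma1. Over time in knockdown cells quantile scaling gave 2 genes and cyclic loess 3, adding Psma3 and Psmc1. In the difference between days quantile, cyclic loess, the percentile over probes above background and centring on bright genes each gave 2, adding Psma6. The cause was not tested. No paired analysis was possible because each group had 1 array. Signal over background limits Psma8 and Psmb11, which had no ratio.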

Other observations

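The genes that flank Psma1 in RefSeq GRCm38.p6 had their own values over time. Pde3b, which encodes a phosphodiesterase of fat cells, had log2 ratios of day 2 over day 0 of 1.79 in knockdown and 2.10 in control cells, and a ratio of knockdown over control at day 2 of -0.10. Copb1, a coat protein gene on the other side, had 0.48 in knockdown and 0.27 in control cells over time, and 0.29 for knockdown over control at day 2. Cyp2r1, which encodes a vitamin D hydroxylase and lies beyond Pde3b, had 0.37 in knockdown and 1.15 in control cells over time, and -0.26 for knockdown over control at day 2. The difference of the knockdown log2 ratios, day 2 minus day 0, was 0.21 for Copb1, -0.30 for Pde3b, -0.78 for Cyp2r1 and -1.18 for Psma1.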
